A study of Homo sapiens with 6 samples.

Results

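Tissue factor and the proteins that hold blood coagulation in check were followed in 2 human pancreatic ductal adenocarcinoma lines, Panc1 and BxPC3, with and without KDM6A, an X-linked histone demethylase of COMPASS-like complexes. The genes were F3, TFPI, TFPI2, THBD, PROCR, F2R, F2RL1 and F5, and every probe set whose annotation names 1 of these symbols alone was taken. This gave 17 probe sets of 7 genes, of 41091 single-symbol probe sets of 19775 genes. F2RL1 had no such probe set and was not analysed here. The genes were chosen with their knockout differences in view, so that these differences are a description, and no p-value is given for any of the 7.

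The Panc1 control and the Panc1 KDM6A knockout were measured on 1 array each, and the BxPC3 control and the BxPC3 KDM6A knockout on 2 arrays each. Per the labels' protocols, knockout cells received Cas9 and a guide against KDM6A from a lentiviral vector, were selected with puromycin, and were cloned by limiting dilution. The lines were grown in different media. The sources used here do not give the number of clones behind the knockout arrays or whether control cells carried a vector. They also do not say whether the 2 arrays of a group came from separate cultures. The errors and p-values below therefore rest only on the spread between arrays, which may be technical. In the fit, limma draws each variance toward a value taken over all tested genes or probe sets. The values are log2 summaries of probe sets by RMA, which subtracts background and equalises the arrays' distributions. Exactly equal values occurred between arrays of the same line and never between lines, and levels were compared only within a line.

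Tissue factor, encoded by F3, is the cell surface receptor of factor VIIa and starts coagulation, which ends in thrombin. TFPI is the Kunitz-type inhibitor that shuts off tissue factor with factor VIIa and factor Xa, while thrombomodulin (THBD) and the endothelial protein C receptor (PROCR) turn thrombin toward activating protein C, which inactivates factor Va. The protease-activated receptors PAR1 (F2R) and PAR2 (F2RL1) carry protease signals into the cell, and pancreatic cancers are known for tissue factor expression and for thrombosis.

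The proximal promoters of F3, TFPI2 and PROCR are shown because F3 differed little in BxPC3 while the other two were lower in knockout than in control arrays. RefSeq promoters (GRCh38.p14) were at hand for 6 of the 8 genes, and the 250 bases before the annotated start are printed 5′ to 3′ on the gene's strand. Capitals mark the AP-1 motif TGANTCA, the GC box GGGCGG that SP1 binds, the EGR motif GCGNGGGCG and the CACCC box CCACCC of Krueppel-like factors, searched on both strands. GC box and EGR matches can overlap. The windows lie at chr1:94541760-94542009 (minus strand) for F3, chr7:93890754-93891003 (minus strand) for TFPI2 and chr20:35171822-35172071 (plus strand) for PROCR.
F3: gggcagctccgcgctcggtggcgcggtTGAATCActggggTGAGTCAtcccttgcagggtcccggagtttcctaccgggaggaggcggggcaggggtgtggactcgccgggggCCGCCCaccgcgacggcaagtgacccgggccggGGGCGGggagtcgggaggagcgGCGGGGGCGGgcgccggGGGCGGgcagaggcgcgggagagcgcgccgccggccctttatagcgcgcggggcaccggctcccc
TFPI2: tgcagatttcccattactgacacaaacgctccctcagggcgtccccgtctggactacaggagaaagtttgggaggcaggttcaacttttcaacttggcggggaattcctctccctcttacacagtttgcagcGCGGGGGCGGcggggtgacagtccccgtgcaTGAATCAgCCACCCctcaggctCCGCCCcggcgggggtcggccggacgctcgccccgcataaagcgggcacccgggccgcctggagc
PROCR: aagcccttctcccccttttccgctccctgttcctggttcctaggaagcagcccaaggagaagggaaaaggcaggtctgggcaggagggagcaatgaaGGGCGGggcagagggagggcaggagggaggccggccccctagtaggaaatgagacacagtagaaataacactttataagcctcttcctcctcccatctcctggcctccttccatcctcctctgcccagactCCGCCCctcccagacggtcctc
The F3 window held 2 AP-1 matches, 4 GC boxes and 1 EGR match. TFPI2 held 1 AP-1 match, 2 GC boxes, 1 EGR match and 1 CACCC box, and PROCR held 2 GC boxes. Among 35116 promoter windows of the same length, 6.57% held an AP-1 match, 42.6% a GC box, 8.41% an EGR match and 31.3% a CACCC box. The F3 window had 34 CpG dinucleotides and that of TFPI2 had 20, against 5 for PROCR, 4 for F5, 2 for TFPI and a median of 11 over all windows.

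KDM6A itself was lower on the knockout arrays. On its brightest probe set the 2 BxPC3 control arrays read 8.02 and 7.85 and the knockout arrays 7.29 and 7.01 (difference -0.79 ± 0.13 SE, limma adjusted p = 0.0405), and Panc1 read 6.73 in control and 4.06 in knockout. A dimmer probe set differed by 0.18 in Panc1, where it was below the array median. The ductal epithelial markers KRT7, KRT8, KRT18, KRT19 and EPCAM were brighter on all 6 arrays than the array median, the median over all its probe sets (4.75 to 5.06).

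**Figure D1:**
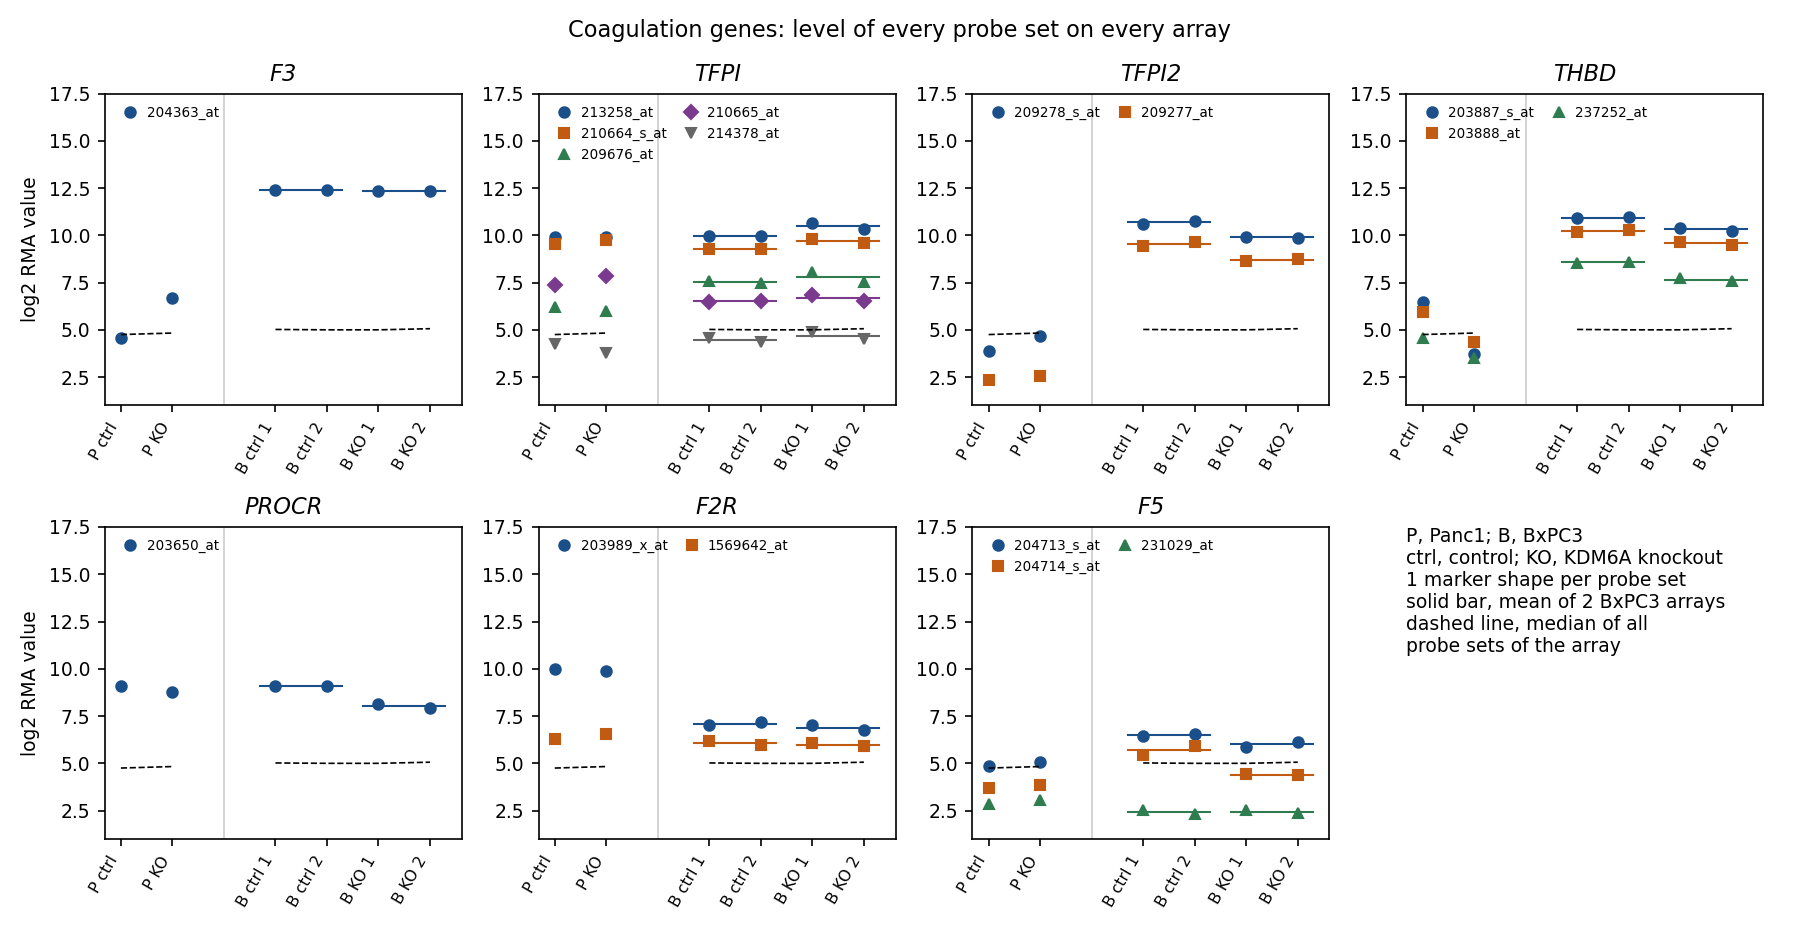
Level of each of the 17 probe sets on each of the 6 arrays, as log2 RMA values, with 1 panel per gene; solid bars are the means of 2 BxPC3 arrays and the dashed line is the median of all probe sets of the array. F3 moved from 4.57 to 6.70 between the Panc1 arrays and lay between 12.33 and 12.38 on the BxPC3 arrays, whereas THBD was lower on the knockout arrays of both lines.

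F3 was higher on the Panc1 knockout array and differed little in BxPC3. Its single probe set read 4.57 on the Panc1 control array, below the array median, and 6.70 on the knockout array. That is a difference of 2.13 on the log2 scale, or 4.39-fold, with 1 array on either side. In BxPC3 it read 12.37 and 12.38 on the control arrays and 12.33 on both knockout arrays. The groups did not overlap, but the difference was only -0.05 ± 0.07 (SE). Since the arrays agreed closely within groups, that error comes mostly from the variance that limma takes over all probe sets. Every BxPC3 array was far above the array median.

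The inhibitors of the tissue factor pathway went different ways. TFPI has 5 probe sets, of which 4 exceeded the array median on all 6 arrays. The brightest read 9.98 on both BxPC3 control arrays and 10.64 and 10.33 on the knockout arrays, a difference of 0.51 ± 0.12. All 5 TFPI probe sets were higher in BxPC3 knockout means, by 0.19 to 0.51, and 3 of them without overlap of the groups. On each of the 5, knockout array 1 was the highest of the BxPC3 arrays, and the gap between the knockout arrays, 0.22 to 0.53, exceeded that between the control arrays. In Panc1 the brightest TFPI probe set read 9.92 and 9.93, and the other four differed by -0.48 to 0.46 with no common direction.

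TFPI2, a related Kunitz-type inhibitor of plasmin, trypsin and other serine proteases in the extracellular matrix, was lower in BxPC3 knockout arrays. Its brighter probe set read 10.62 and 10.75 in control and 9.92 and 9.88 in knockout arrays, a difference of -0.78 ± 0.08, or 1.72-fold. The other read 9.44 and 9.63 against 8.66 and 8.72, a difference of -0.84 ± 0.09. Neither overlapped between groups, and the nearest control and knockout arrays stood at least 0.70 apart. In Panc1 both probe sets were below the array median on both arrays, at 3.90 and 4.65 for the brighter and 2.36 and 2.54 for the other.

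THBD was lower on the knockout arrays of both lines on each of its 3 probe sets. In Panc1 the brightest read 6.49 in control and 3.70 in knockout, a difference of -2.80 (6.95-fold). The second read 5.94 and 4.34 (-1.60), and the third 4.56 and 3.51 (-1.05), below the array median on both arrays. All 3 were below the array median on the Panc1 knockout array. In BxPC3 the brightest read 10.89 and 10.95 against 10.40 and 10.22 (-0.61 ± 0.09). The second read 10.18 and 10.26 against 9.67 and 9.50 (-0.64 ± 0.09), and the third 8.55 and 8.58 against 7.76 and 7.56 (-0.91 ± 0.09). The BxPC3 groups were apart on each probe set, by 0.49 to 0.79 between the nearest arrays.

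PROCR, the partner of thrombomodulin in protein C activation, had the largest BxPC3 difference among the probe sets that stand for a gene. It read 9.09 and 9.11 in BxPC3 control and 8.13 and 7.95 in knockout arrays, a difference of -1.07 ± 0.09 or 2.09-fold, with 0.97 between the nearest arrays. In Panc1 it read 9.08 and 8.79, a difference of -0.29. Both components of the protein C activating pair were thus lower in BxPC3 knockout arrays, and on the Panc1 arrays THBD had the wide difference and PROCR a narrow one.

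The thrombin receptor gene F2R differed little in either line. Its brighter probe set, which can hybridise to similar transcripts, read 9.98 and 9.90 in Panc1. In BxPC3 it read 7.02 and 7.16 in control and 7.03 and 6.75 in knockout arrays (-0.20 ± 0.12), and the groups overlapped. The other F2R probe set differed by 0.26 in Panc1 and -0.09 ± 0.10 in BxPC3, also with overlap.

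F5 encodes factor V, the cofactor of factor Xa and a target of activated protein C, which is made mainly in the liver. Its brightest probe set read 6.47 and 6.53 in BxPC3 control and 5.89 and 6.14 in knockout arrays (-0.48 ± 0.10), and the second 5.43 and 5.93 against 4.43 and 4.37 (-1.28 ± 0.17). Neither overlapped between groups. The second exceeded the array median only on the 2 BxPC3 control arrays, and so entered the fit only through the group where it was high. The third never reached the array median. In Panc1 the 3 probe sets differed by 0.13 to 0.20, between 2.86 and 5.05.

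**Figure D2:**
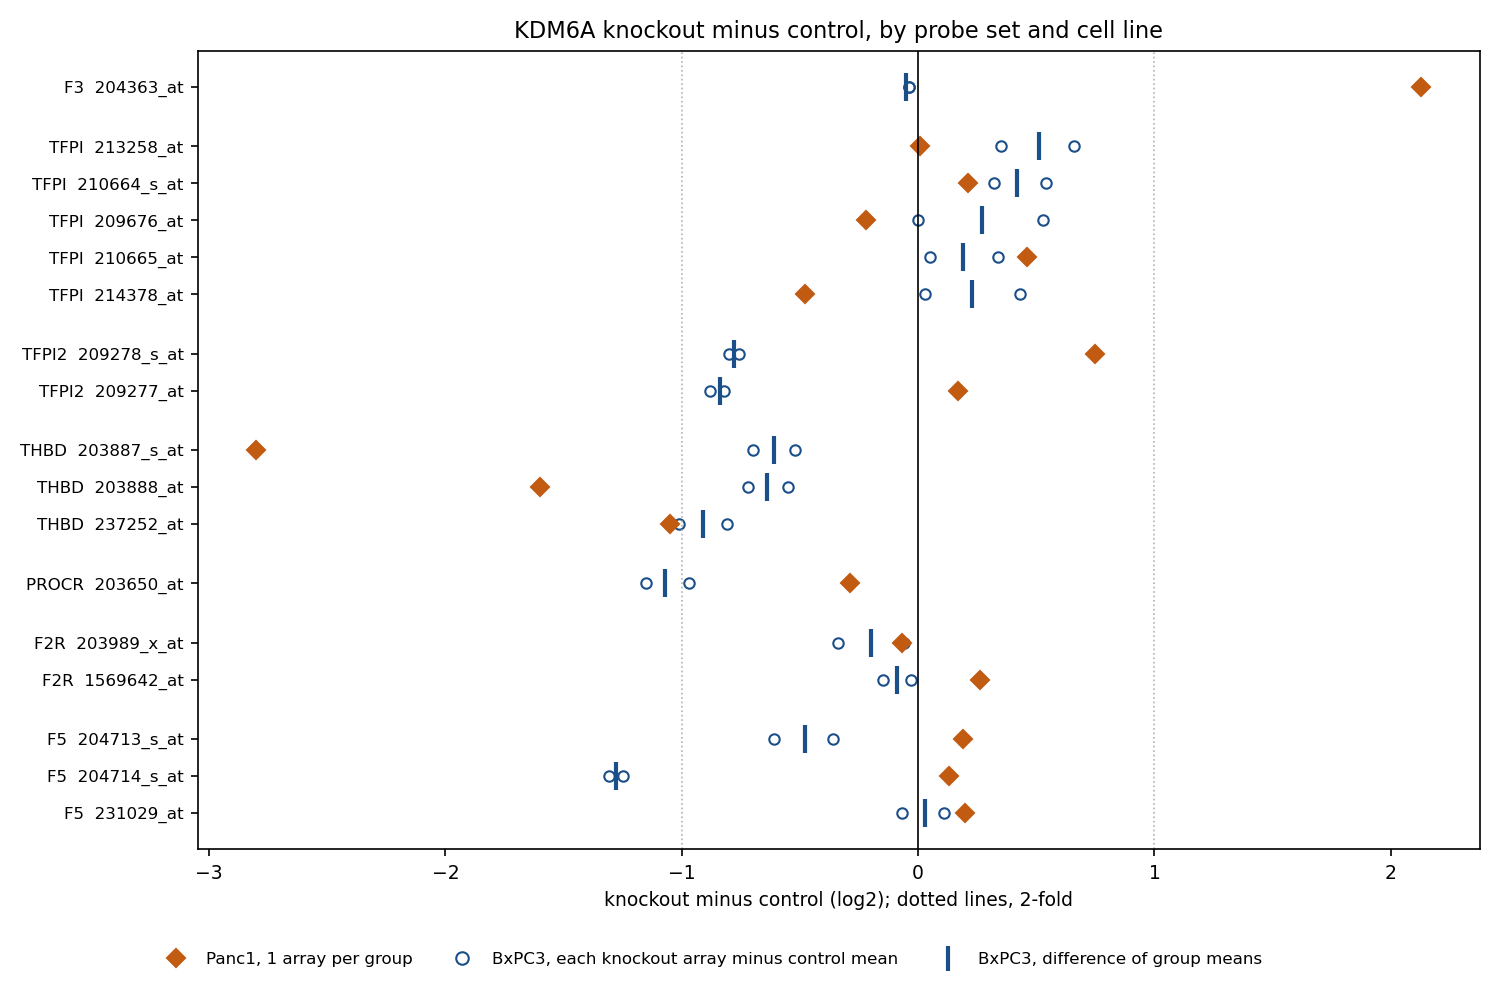
Knockout minus control for each probe set on the log2 scale; diamonds are Panc1 (1 array per group), open circles each BxPC3 knockout array minus the control mean, and vertical bars the difference of BxPC3 group means. Panc1 differences past 2-fold were those of F3 (2.13) and THBD (-1.05 to -2.80), and the BxPC3 bars ran from -1.28 for a dim F5 probe set to 0.51 for TFPI.

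Of the 7 genes, each by its brightest probe set, 3 (TFPI2, THBD and PROCR) were below an adjusted p of 0.05 in BxPC3 with the knockout lower and 0 with the knockout higher. Over all 14387 tested genes 3.58% fell and 1.14% rose (4.72% in all). These genes were chosen on this contrast, so their count is not support for it. Without BxPC3 control array 1 or control array 2 the count was 0, with 1 residual degree of freedom left. It was 3 without knockout array 1 and 2 (PROCR lower, TFPI higher) without knockout array 2. By probe set, 15 of 17 exceeded the array median on at least 1 array and 7 of these 15 were called, all lower, where 3.33% of 27088 probe sets were called, 2.56% lower and 0.772% higher. Among the 7 is the second F5 probe set, which entered the fit only through the control arrays where it was high, and a stricter filter on dim probe sets gave 6 of 14. Nothing is read from this count. Without 1 array the 7 became 0 to 2 (1 without control array 1, 0 without control array 2, 2 without knockout array 1 and 0 without knockout array 2). The BxPC3 groups did not overlap on 12 of the 17 probe sets, 9 lower and 3 higher in knockout, where 42.6% of all single-symbol probe sets did not, 20.9% lower and 21.6% higher. In Panc1, 1 of 7 genes was at least 2-fold higher and 1 lower, where 0.577% and 3.28% of all tested genes were (3.86% in all). By probe set 1 of 17 was higher and 3 were lower, where 0.399% and 2.19% of all were (2.58% in all).

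When the arrays were set to a common median over tested genes, every Panc1 difference shifted up by 0.20, which left F3 at 2.33 and THBD at -2.60 and moved F2R from -0.07 to 0.12. It changed the Panc1 split over all genes from 472 lower and 83 higher to 301 lower and 152 higher. The median difference of the 7 genes was -0.48 in BxPC3 and 0.01 in Panc1, against 0.00 for all tested genes in both.

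Genes whose pattern came nearest to those of THBD and F3 were found by Euclidean distance over the 6 arrays, with values centred within each line. Nearest to THBD were NOL4L (distance 0.22), TIMP2 (0.24), KDM6A (0.26) and SLC4A11 (0.28). KDM6A differed by -2.67 in Panc1 and TIMP2, an inhibitor of matrix metalloproteinases, by -2.49. Nearest to F3 were DIPK1A (0.17), FRMD3 (0.27), DSE (0.27) and CDC27 (0.29), which differed by 1.79 to 2.51 in Panc1 and by -0.02 to -0.11 in BxPC3. This likeness is a description of 6 values per gene.

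THBD, PROCR and TFPI are known from endothelium, and F3 from monocytes and fibroblasts. Of 10 measured endothelial markers, EMCN, ERG, KDR and TIE1 were below the array median on all 6 arrays. CLDN5 and PECAM1 were above it on all 6. The mean of the 10 was 4.13 and 4.30 on the Panc1 arrays, 4.46 to 4.47 on BxPC3 control arrays and 4.22 to 4.40 on BxPC3 knockout arrays. The endothelial cadherin CDH5 went from 6.83 in BxPC3 control to 4.63 in knockout means, and PECAM1 differed by -0.02. The 6 monocyte and macrophage markers had means of 3.98 to 4.24 over all arrays, with PTPRC, LYZ and CD163 below the array median throughout. CD14 was lower on the knockout arrays of both lines, at 4.89 and 4.10 in Panc1 and at 5.36 and 5.28 against 4.85 and 4.93 in BxPC3, and exceeded the array median only on the 3 control arrays. Of the 6 fibroblast markers, COL1A2, COL3A1 and LUM were below the array median throughout, and COL1A1 and PDGFRB were above it throughout. The mean of the list was 4.97 to 5.14 on BxPC3 control and 4.64 on both BxPC3 knockout arrays. LUM was at 4.56 and 2.65 and COL3A1 at 4.44 and 3.82 in BxPC3 group means. For F5, which hepatocytes and platelets also carry, the 4 hepatocyte markers had means of 3.92 to 4.10 in BxPC3 control arrays. Their means were 4.02 to 4.07 in BxPC3 knockout arrays and 4.54 and 4.67 in Panc1. ALB and APOA1 were below the array median throughout, and TTR was above it throughout. The 5 platelet markers had means of 5.16 to 5.40 and 4.91 to 5.16 in BxPC3 and of 4.90 and 5.09 in Panc1. GP9, ITGA2B and PF4 were above the array median throughout. PPBP was below it throughout, at 4.12 and 2.93 in the BxPC3 group means. The part of these markers in the results was not tested. All 6 arrays are of cultured cancer lines. Bulk RNA cannot tell fewer cells that carry a transcript from less of it per cell.

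Other genes of the clotting cascade were not called in either line. Of 21 coagulation factors and proteins that mature them, 12 were tested and 0 passed in BxPC3 by limma, with a median difference of 0.05. Of the 12, 2 had an unadjusted limma p under 0.05, where 2870 of all 14387 tested genes did. None reached 2-fold in Panc1. With 4.72% of all tested genes called in BxPC3 and 3.86% past 2-fold in Panc1, counts of 0 among 12 are near the background. The furthest apart there were F8, the cofactor of factor IXa (8.93 to 7.94, -0.99), and F7, the protease that binds tissue factor (5.23 to 5.62, 0.40), and in BxPC3 they differed by -0.37 ± 0.13 and 0.01 ± 0.14. The tissue factor chaperone P4HB differed by 0.09 ± 0.06 in BxPC3 and -0.17 in Panc1.

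Among 9 tested anticoagulant proteins and heparan sulfate enzymes, 1 rose and 0 fell in BxPC3, where 1.14% and 3.58% of all tested genes did. That one was HS3ST3B1, a heparan sulfate sulfotransferase, which read 8.21 and 8.12 in control and 9.12 and 8.81 in knockout arrays (0.80 ± 0.12, limma adjusted p = 0.031). Its dimmer probe sets differed by 0.16 and 0.33, and the mean of all 3 by 0.43 (limma adjusted p = 0.0632). PROS1, the protein S cofactor of activated protein C, read 7.98 and 6.91 in Panc1 (-1.07) and was at -0.26 ± 0.29 in BxPC3. GPIHBP1, which is no anticoagulant, was among the 9 and differed by -0.10.

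Of 15 tested proteases that can activate PAR2 and their inhibitors, 2 fell and 0 rose in BxPC3, where 3.58% and 1.14% of all tested genes did. Both were membrane-anchored serine proteases. TMPRSS4 read 9.84 and 9.88 in control and 8.63 and 8.52 in knockout arrays (-1.29 ± 0.07, limma adjusted p = 0.00339). TMPRSS11D read 7.17 on both control arrays and 5.72 and 6.09 on knockout arrays (-1.26 ± 0.13, limma adjusted p = 0.0133). The remaining 13, matriptase (ST14, -0.26 ± 0.07) and its inhibitor SPINT1 (-0.17 ± 0.08) among them, did not pass, and the list median was -0.05. In Panc1 none reached 2-fold, where 3.86% of all tested genes did. Of 13 receptor signalling genes (G proteins, arrestins, RhoGEFs, phospholipases C, RHOA and CAV1), 0 passed in BxPC3 by limma (4.72% of all tested genes did). Of the 13, 0 had an unadjusted limma p under 0.05, where 2870 of all 14387 tested genes did. In Panc1 the arrestin ARRB1 differed by -0.71 and the RhoGEF ARHGEF1 by 0.39.

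Genes known to be induced by PAR signalling had the lowest list median in either line, -0.46 in BxPC3 and -0.79 in Panc1, against 0.00 for all tested genes. Of 13 tested, 6 fell and 0 rose in BxPC3, where 3.58% of all tested genes fell and 1.14% rose. They were IL6 (-1.02 ± 0.11) and IL1B (-0.90 ± 0.06), inflammatory cytokines, PLAUR (-0.75 ± 0.08), the urokinase receptor, PTGS2 (-0.52 ± 0.06), the inducible cyclooxygenase, CXCL8 (-0.51 ± 0.08), a neutrophil chemokine, and HBEGF (-0.46 ± 0.07), a ligand of EGFR, with limma adjusted p between 0.00495 and 0.0356. In Panc1, CXCL2 (7.74 to 5.95, -1.79), CXCL8 (8.27 to 6.72, -1.55) and HBEGF (7.44 to 6.01, -1.43) were at least 2-fold lower and 0 were higher, where 3.28% of all tested genes were lower by that much. These values are of the brightest probe sets. The dimmer probe sets of CXCL2 differed by 0.40 and 0.58 in Panc1, both below the array median there, and the second of CXCL8 by -1.61. The other probe sets of HBEGF differed by -1.04, 0.37 and 0.44. The matricellular genes CCN1 and CCN2 differed by -0.04 ± 0.07 and 0.03 ± 0.13 in BxPC3 and by -0.26 and -0.99 in Panc1. Many of these genes answer to other pathways as well. The dimmer probe sets of HBEGF differed by 0.26 and 0.14 in BxPC3 and the brighter ones by -0.46 and -0.50, and the mean of all 4 by -0.14 (limma adjusted p = 0.333).

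Transcription factors known to act on F3 or THBD moved in part. Of 16 tested, 2 rose and 1 fell in BxPC3, where 1.14% and 3.58% of all tested genes did. FOS, a subunit of AP-1, read 10.52 on both control arrays and 11.23 and 11.05 on knockout arrays (0.62 ± 0.08, limma adjusted p = 0.024), and FOSB read 7.83 and 7.86 against 8.95 and 8.69 (0.98 ± 0.11, limma adjusted p = 0.0136). KLF6 passed on its brightest probe set (-0.42 ± 0.07, limma adjusted p = 0.0372) but not in the fit by probe set (limma adjusted p = 0.0549). Its other probe sets differed by -0.35 to 0.11, and the mean of all 5 by -0.24 (limma adjusted p = 0.0992). In Panc1, KLF4, a Krueppel-like factor known to raise THBD in endothelium, read 7.40 in control and 3.67 in knockout (-3.73). A second probe set read 4.47 and 4.23 (-0.24), below the array median on both Panc1 arrays. In BxPC3 the brighter KLF4 probe set differed by -0.11 ± 0.08. EGR1 differed by 0.34 in Panc1 and 0.28 ± 0.07 in BxPC3, and RELA by 0.06 and -0.07 ± 0.07.

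Phosphatidylserine on the outer membrane leaflet is the surface on which clotting complexes assemble. Of 10 tested genes of its exposure and binding, 1 fell in BxPC3, the interferon-inducible phospholipid scramblase PLSCR1, which read 12.42 and 12.41 in control and 11.90 and 11.86 in knockout arrays (-0.54 ± 0.07, limma adjusted p = 0.0177). The calcium-activated scramblase ANO6 differed by 0.13 ± 0.09 in BxPC3. In Panc1 0 of the 10 reached 2-fold, where 3.86% of all tested genes did.

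Over the 7 lists together, 87 genes were tested, of which 10 fell and 3 rose in BxPC3 and 5 were at least 2-fold lower in Panc1. Over all tested genes these shares were 3.58%, 1.14% and 3.28%. The lists were drawn up with results of these arrays known, so their counts are no independent evidence of direction. Without BxPC3 control array 1 or control array 2 only TMPRSS4 of the 13 stayed past the threshold. Without knockout array 2 there were 8, and without knockout array 1 there were 14.

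**Figure D3:**
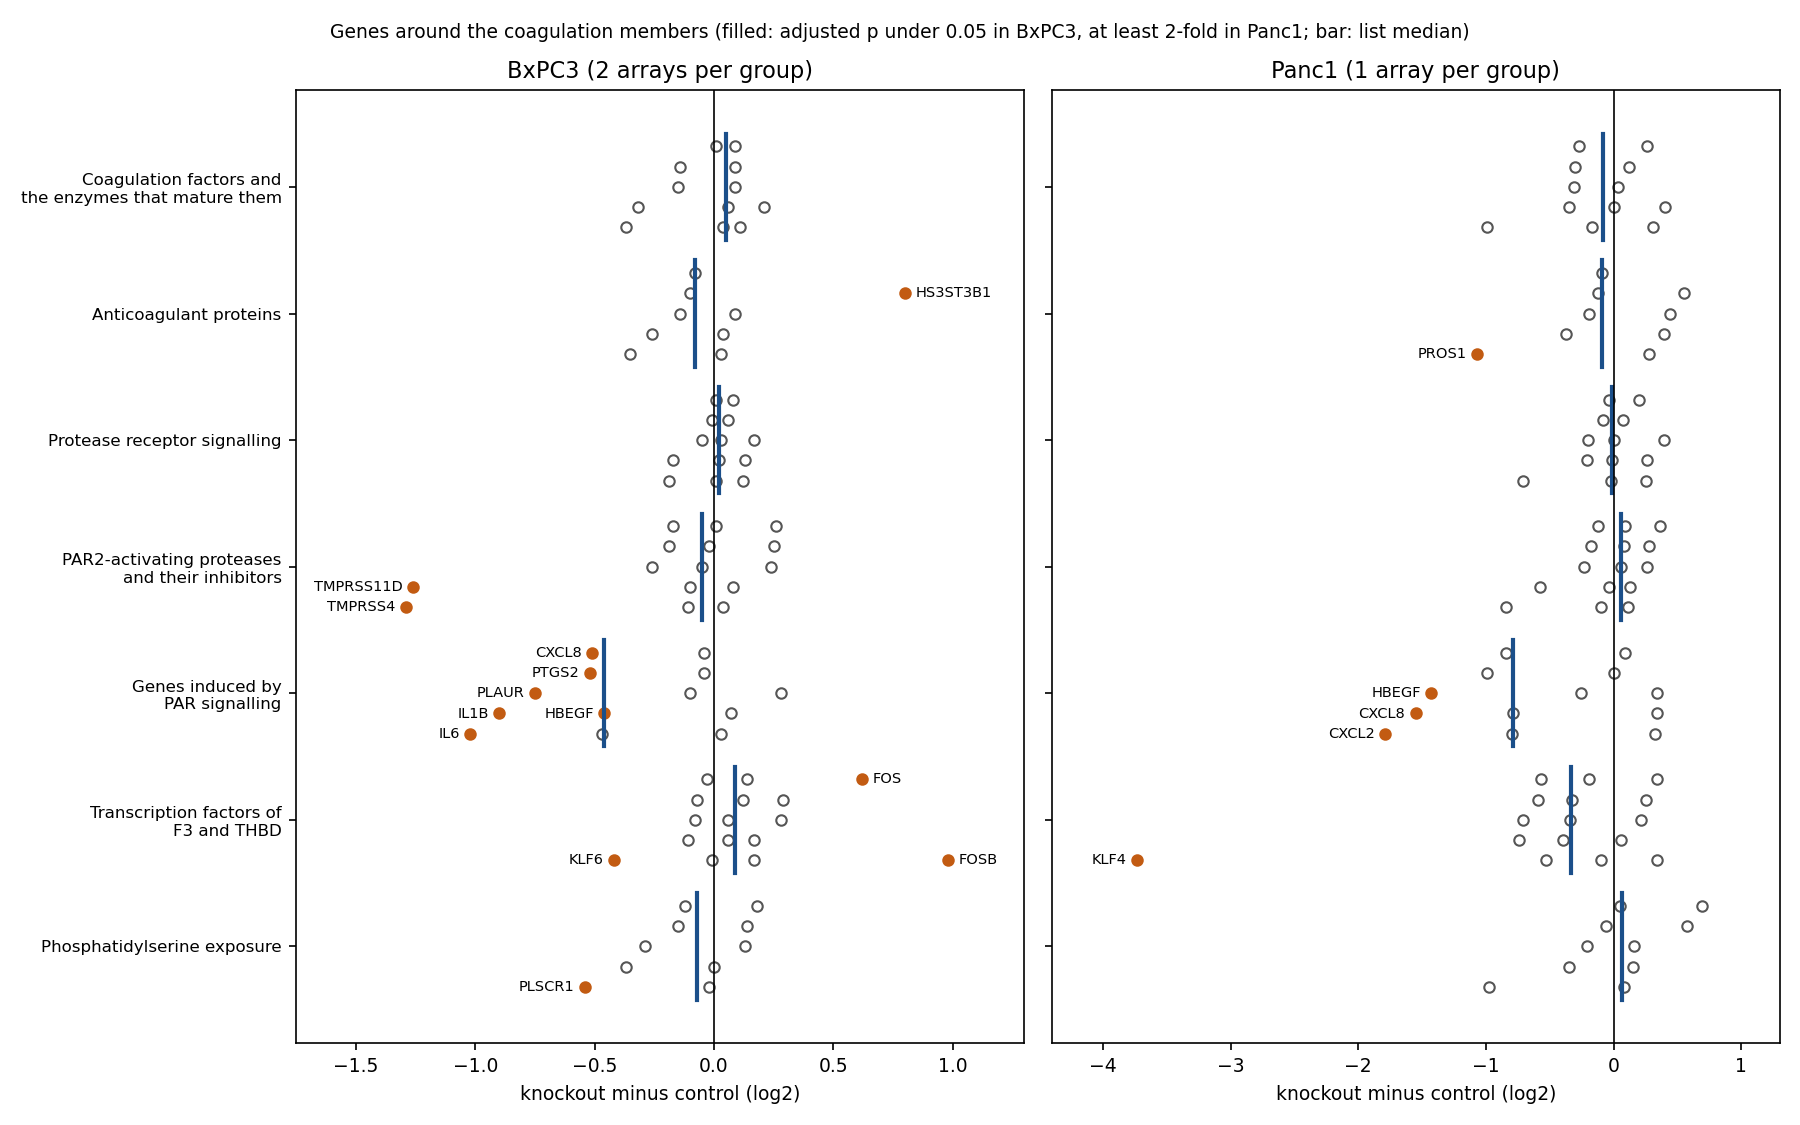
Knockout minus control on the log2 scale for the 87 tested genes of the 7 lists (EGR1 is drawn in both lists that hold it), BxPC3 at left and Panc1 at right; filled points passed the adjusted p of 0.05 in BxPC3 or 2-fold in Panc1, and the bar is the list median. The PAR-induced list lay lowest, with medians of -0.46 and -0.79, and KLF4 stood at -3.73 in Panc1.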

How the data were processed

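Expression was measured on 6 one-colour oligonucleotide arrays. Per the submitters' processing notes, RMA from affy gave the deposited log2 values; its version is not given in the sources used here. Per the labels' protocols, RNA had an integrity number above 7 and was amplified from the 3′ end. Of 54613 probe sets, 41091 have 1 gene symbol in the platform annotation, 1801 have several and 11721 none, and only the first kind was named. Of the 41091, 41037 matched RefSeq by gene ID. A gene was tested by its brightest probe set where that exceeded the array median on at least 1 array (14387 of 19775 genes). The same fit was run by probe set (27088 past the filter), and errors of the 7 genes come from it. BxPC3 groups were compared with limma 3.58.1 in R 4.3.3, with 1 mean per group, 2 residual and 3.08 prior degrees of freedom and Benjamini-Hochberg adjustment over all features. Panc1, with 1 array per group, has no test, and a 2-fold difference was counted.

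The 8 genes and the 7 lists (109 genes, of which 104 had a single-symbol probe set) were chosen with earlier results of these data known. Named list genes are those past either threshold, up to 4 per direction and line, or else the 2 furthest apart; others named were chosen after their values were seen. The fit was tested on simulated data. Alternatives were other filters, scalings, variance priors, probe set averages, a replicate block and leaving out each BxPC3 array. The number of arrays limits the precision.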

Additional observations from a re-analysis of the deposited data

Results flagged for a closer look

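Results were taken up here where the Panc1 difference and both BxPC3 knockout arrays lay on opposite sides of control; the difference between the lines was not tested. F3 differed by 2.13 in Panc1 and by -0.05 in BxPC3, the latter a small shift on a probe set whose arrays agreed closely within groups. TFPI2 differed by 0.75 and -0.78 on its brighter probe set and by 0.17 and -0.84 on the other, with all Panc1 values below the array median. F5 differed by 0.19 and -0.48 on its brightest probe set and by 0.13 and -1.28 on the second. In Panc1 the second was below the array median on both arrays. The brightest read 4.86 and 5.05 there, near the array medians of 4.75 and 4.83.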

How the results depend on the processing

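No called difference of the 7 genes changed sign under any alternative run, but most runs could not change it. The filters, the variance prior and the replicate blocks left these differences as they were. The BxPC3 groups of the called genes did not overlap, so leaving out 1 array could not change the sign. Only the scalings and probe set averages could have changed it, and they did not. The count of BxPC3 genes past the threshold, 679, was 445 when dim probe sets were kept, 1317 when the variance prior followed expression and 89 to 610 without 1 array; by probe set, 902 became 492, 1673 and 45 to 184. Of the 7 coagulation genes, 3 passed as reported, 5 with the variance prior that follows expression (TFPI and F5 in addition) and 0 to 3 without 1 array. TFPI also passed with quantile or cyclic loess scaling, and THBD did not pass with dim probe sets kept. List genes past the threshold in BxPC3, 13 as reported, were 1 to 14 without 1 array. In Panc1, 555 genes were at least 2-fold apart and 323 with probe sets averaged, which put THBD at -1.82.

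Same-numbered BxPC3 arrays did not deviate together (correlation -0.17 over genes), and the labels tie nothing to the number. With the replicate number as a block, the BxPC3 counts were 384 genes, 531 probe sets, 2 of the 7 coagulation genes (THBD was lost) and 7 list genes. With the numbers crossed, a choice made after seeing the data, they were 455 genes, 3 coagulation genes and 7 list genes. The cause of these shifts was not tested. A block or a left-out array leaves fewer residual degrees of freedom. With a control array left out, the lone control is assumed to vary like the other groups. Signal limits TFPI2 in Panc1, THBD on the Panc1 knockout array and F3 on the Panc1 control array, which lay below the array median.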

Other observations

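The 2 nearest measured genes on either side of each gene were read from the RefSeq gene order (GRCh38.p14). Beside TFPI, GULP1, an adaptor of phagocytosis, fell in BxPC3 from 8.41 to 6.87 (-1.54 ± 0.08, limma adjusted p = 0.00203), while the TFPI probe sets were higher, and it differed by 0.22 in Panc1. Beside F3, SLC44A3, a choline transporter-like protein, rose in BxPC3 (0.46 ± 0.08, limma adjusted p = 0.0452), and in Panc1 ABCD3, a peroxisomal transporter, differed by 0.82 where F3 differed by 2.13. Beside TFPI2, GNG11, a G protein gamma subunit, differed by 1.04 in Panc1 and by -0.09 ± 0.09 in BxPC3.

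The genes beside THBD (FOXA2, SSTR4, CD93 and LINC00656) differed by -0.01 to 0.27 in Panc1, where THBD differed by -2.80. Those beside PROCR (TRPC4AP, EDEM2, MMP24 and MMP24OS) differed by -0.11 to 0.11 in BxPC3, where PROCR differed by -1.07. The tested genes beside F5, SLC19A2 and SELP, differed by -0.17 ± 0.08 and 0.13 ± 0.12 in BxPC3. F2RL2, the PAR3 gene next to F2R, never reached the array median and read 4.66 and 3.35 in Panc1.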
